A study of Mus musculus with 12 samples.

Results

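The genes described here are 83 chromatin and DNA methylation regulators, whose products write, erase, read or move marks on chromatin and DNA, measured in mouse regulatory T cells (Treg) and conventional CD4 T cells (Tconv). They were taken by name: the DNA demethylases (Tet), DNA methyltransferases (Dnmt), histone methyltransferases (Ezh, Kmt, Setd, Suv, Ehmt, Dot1l), histone demethylases (Kdm), deacetylases (Hdac, Sirt), acetyltransferases (Kat), bromodomain readers (Brd) and chromatin remodellers (Smarc, Chd, Arid). Of 13404 rows in the count table, 88 carried such a name. A row also needed at least 120 counts summed over the 12 libraries, which left out 4 genes (Arid3c, Chd5, Dnmt3l and Smarca1), and 1 Y-linked gene was left out by rule. The lowest member kept had a sum of 434 counts and the highest gene left out for its sum had 66. Dnmt1, the maintenance DNA methyltransferase, had no row under that name in the count table, so the families listed are not complete here.

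DNA is methylated at CG sites by DNA methyltransferases, and Tet enzymes oxidise the methyl group, the first step in removing it. In Treg this balance is best known at an enhancer inside Foxp3, the gene of the transcription factor that defines the lineage, which must stay demethylated for stable expression and where Tet2 and Tet3 act. Histone tails are marked in parallel: H3K4 methylation by the Kmt2 enzymes goes with active enhancers and promoters, H3K27 methylation by Ezh2 with silencing, and acetylation is removed by histone deacetylases and sirtuins, of which Sirt1 depends on NAD and deacetylates both histones and the Foxp3 protein. Remodellers of the SWI/SNF and CHD families use ATP to shift nucleosomes.

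The libraries were made from polyadenylated RNA of spleen cells of C57BL/6 mice, which had been sorted as CD4+CD25+ (Treg) or as CD4+ (Tconv). The 6 groups held 2 libraries each: Treg and Tconv of aged wild-type mice (over 18 months), of 2-month-old mice labelled Dcaf1-deficient, and of young wild-type mice (2 months). The labels name neither the allele nor a Cre driver. They do not say whether the 2 libraries of a group came from separate mice, so p-values measure only the spread between these libraries. Nor do they say whether Treg and Tconv of the same condition came from the same mice. The main fit took all libraries as independent. Dcaf1, listed as Vprbp, was at 102 and 101 CPM (counts scaled to library size, with TMM factors) in the Treg libraries labelled Dcaf1-deficient, against 144 and 128 CPM in young Treg. The log2 fold change was -0.42 (SE 0.14, adjusted p = 0.148 in edgeR). In Tconv it was at 132 CPM in both labelled libraries, against 147 and 144 CPM in young Tconv (-0.14, SE 0.14, edgeR adjusted p = 0.731). Whether part of the gene was missing cannot be read from counts over the whole gene, and the name labelled Dcaf1-deficient is kept for these libraries.

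Several libraries stood apart. Library totals lay between 18358477 and 26852448 estimated counts. Foxp3 and Il2ra, the gene of CD25, were high in all 6 Treg libraries (Foxp3 535 to 1986 CPM), but aged Tconv also held Foxp3 (334 and 675 CPM, against 47.7 and 78.4 CPM in young Tconv). Il2ra did not follow there, at 43.1 and 29.7 CPM in aged Tconv, overlapping the 31.8 and 63.2 CPM of young Tconv. The 12-gene macrophage list, of which 10 were in the table, had a mean log2 CPM of 9.88 and 5.65 in aged Treg 1 and 2, 10.1 and 10.4 in labelled Treg and 3.67 and 8.54 in young Treg. In Tconv it was 2.26 and 1.05 in aged, 6.53 and 6.62 in labelled and 0.17 and 4.51 in young libraries. The B cell, erythroid and neutrophil lists split the Treg libraries in the same way, with aged Treg 1, both labelled libraries and young Treg 2 above aged Treg 2 and young Treg 1. Aged Treg 1 lay closer to labelled Treg 1 (mean chi-square per gene 13.0) than to aged Treg 2 (350), and the 2 labelled Treg libraries were farther from each other (42.9). Whether these samples were exchanged or mixed was not tested, and every value of aged Treg and labelled Treg carries that doubt. Aged Treg 2 and aged Tconv 2 alone carried the title tag L3. They were also the only wild-type libraries with high Xist, the RNA made from the inactive X chromosome of females. Aged and labelled groups were compared with the same young libraries, so the results of the 2 comparisons are not independent of each other.

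Together the 83 members took 1.37 to 1.82% of all counts in a library. Levels were divided by the exon length merged over all annotated transcripts of a gene. That length can exceed the length of the expressed transcript, so genes are compared only roughly. On this scale the most abundant were Chd3 and Chd4, the ATPases of the NuRD corepressor complex (mean over 12 libraries 112 and 104 CPM per kb). The bromodomain protein gene Brd2 followed (84.0). Among the Tet genes, Tet3 stood at 12.6, Tet2 at 5.14 and Tet1 at 2.12 CPM per kb. Dnmt3a, a de novo DNA methyltransferase, stood at 10.8 and its relative Dnmt3b at 3.32 CPM per kb. The lowest were the demethylase gene Kdm4d (0.939) and the pseudogene Smarca5-ps (0.497 CPM per kb). Smarca5-ps (GRCm38 chromosome 4, 145464204 to 145467420) is annotated as a transcribed processed pseudogene. It can share reads with its parent gene Smarca5, so its counts are uncertain.

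**Figure D1:**
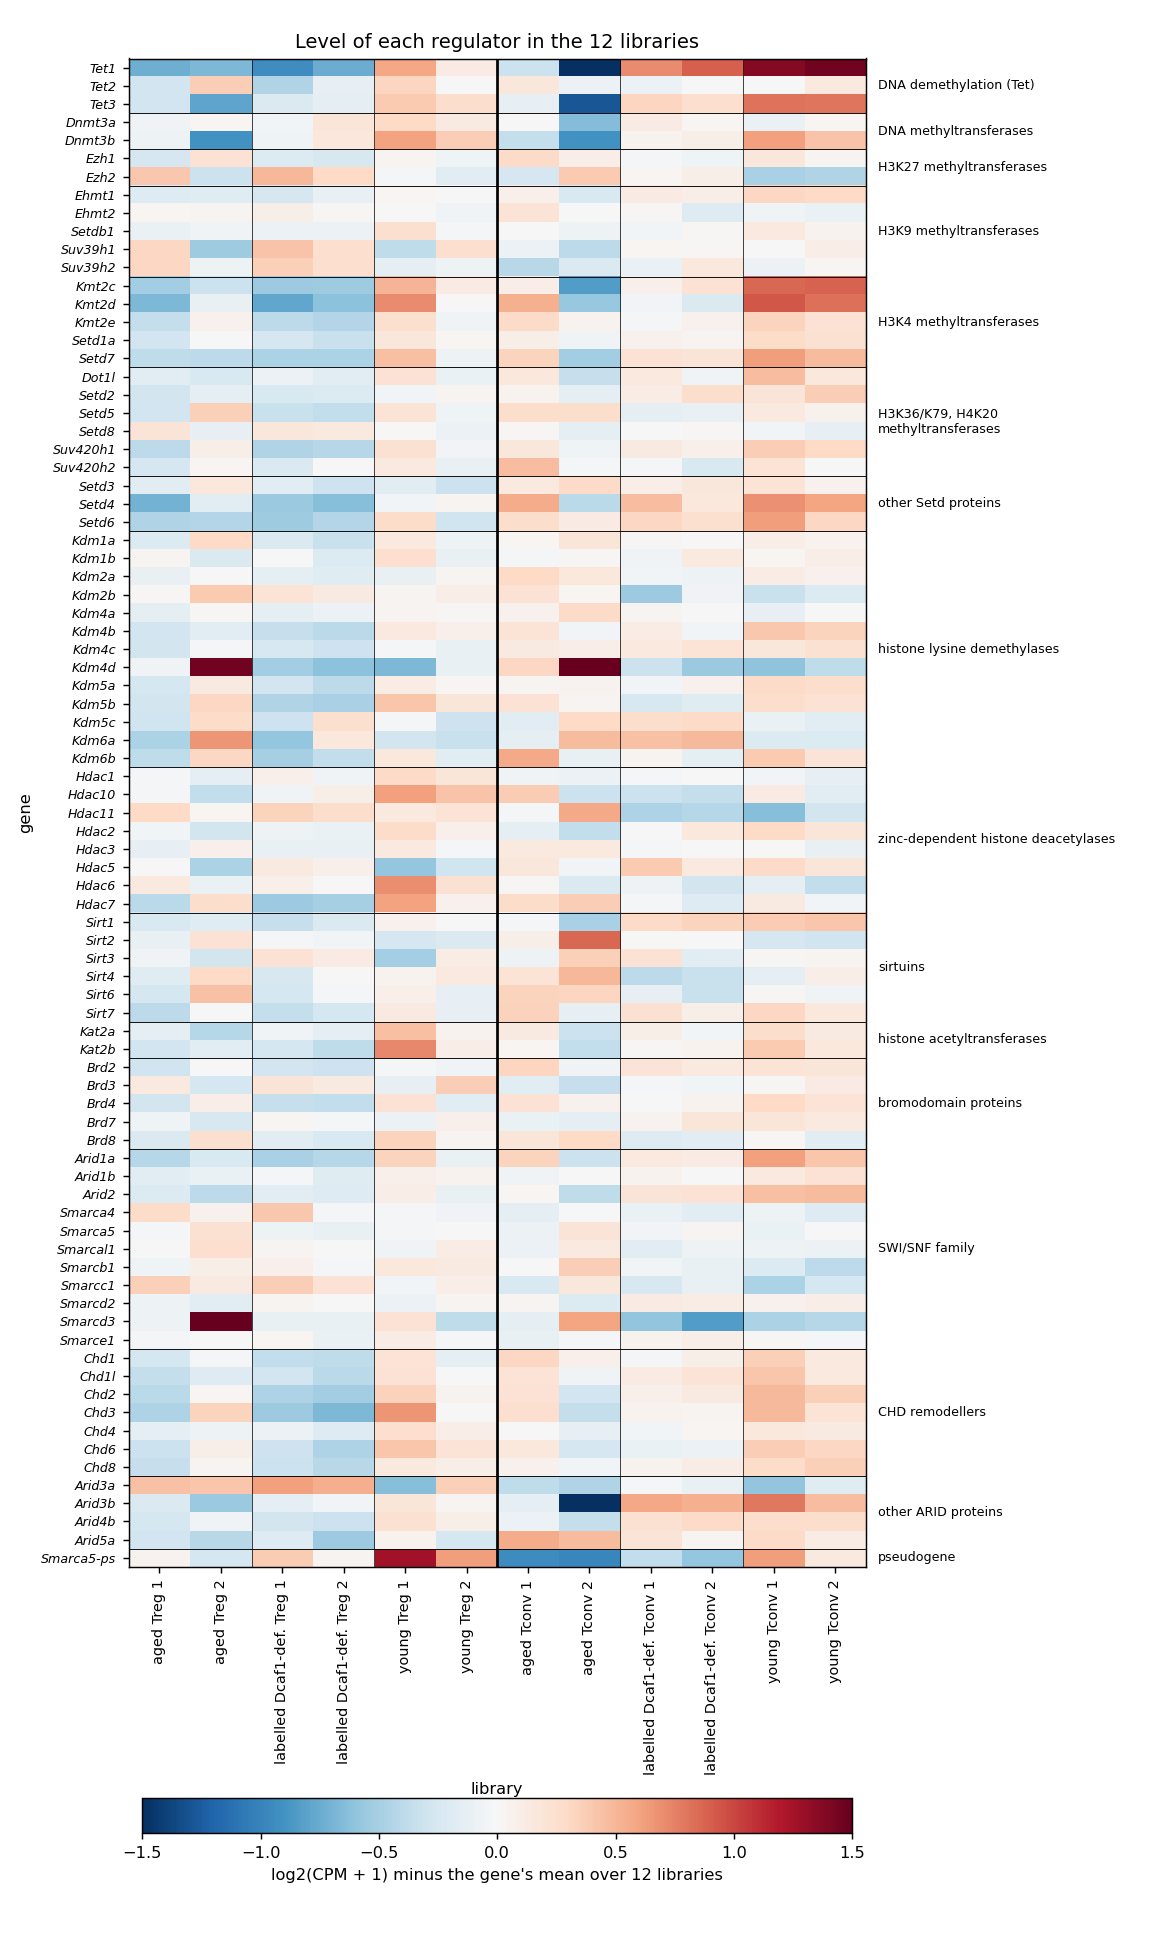
Each row is one of the 83 genes, grouped by role, and each column one library; colour gives log2(CPM + 1) minus the gene's mean over the 12 libraries, on a scale that ends at -1.5 and 1.5. Tet1, Tet3, Kmt2c and Dnmt3b are blue in most aged libraries, with aged Tconv 2 among the darkest, and red in young ones, while Kdm4d is dark red in aged Treg 2 and aged Tconv 2 alone.

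The proximal promoters of 5 members are shown because 4 of the genes (Tet1, Tet3, Sirt1 and Kmt2c) were lower with age in Tconv, as described below, while Tet2 did not pass that test. The sequences are the 250 bases before each gene's start in RefSeq (GRCm38.p6, all on the minus strand and printed 5′ to 3′ as transcribed). For Tet1, Tet2, Tet3 and Sirt1 that start lies inside the gene limits given below, which are GENCODE's and span every annotated transcript. The capitals mark the GC box GGGCGG on either strand (CCGCCC when reversed) and the CCAAT box (ATTGG when reversed), with no other motif of the search found in these windows. They lie at chr10:62887325-62887574 for Tet1, chr3:133544391-133544640 for Tet2, chr6:83441679-83441928 for Tet3, chr10:63339036-63339285 for Sirt1 and chr5:25498784-25499033 for Kmt2c.
Tet1: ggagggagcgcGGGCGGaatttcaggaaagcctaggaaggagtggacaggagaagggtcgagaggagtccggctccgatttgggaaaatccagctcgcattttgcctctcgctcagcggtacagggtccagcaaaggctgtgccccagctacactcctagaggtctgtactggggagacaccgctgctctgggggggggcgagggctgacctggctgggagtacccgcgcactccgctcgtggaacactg
Tet2: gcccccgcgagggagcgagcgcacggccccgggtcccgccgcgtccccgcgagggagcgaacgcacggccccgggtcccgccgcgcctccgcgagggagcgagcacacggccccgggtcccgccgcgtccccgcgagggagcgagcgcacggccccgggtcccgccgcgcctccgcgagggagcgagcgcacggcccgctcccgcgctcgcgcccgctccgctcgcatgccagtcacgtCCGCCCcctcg
Tet3: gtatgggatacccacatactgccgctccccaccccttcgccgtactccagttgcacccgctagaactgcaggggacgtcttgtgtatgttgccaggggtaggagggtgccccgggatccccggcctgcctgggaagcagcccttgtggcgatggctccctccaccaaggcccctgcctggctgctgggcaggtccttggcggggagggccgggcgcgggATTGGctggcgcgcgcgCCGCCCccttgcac
Sirt1: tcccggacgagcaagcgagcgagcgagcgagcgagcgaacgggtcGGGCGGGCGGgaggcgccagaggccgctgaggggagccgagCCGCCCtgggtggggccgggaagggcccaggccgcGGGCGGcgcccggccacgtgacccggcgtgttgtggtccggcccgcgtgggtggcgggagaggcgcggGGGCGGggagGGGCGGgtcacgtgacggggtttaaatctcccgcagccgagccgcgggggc
Kmt2c: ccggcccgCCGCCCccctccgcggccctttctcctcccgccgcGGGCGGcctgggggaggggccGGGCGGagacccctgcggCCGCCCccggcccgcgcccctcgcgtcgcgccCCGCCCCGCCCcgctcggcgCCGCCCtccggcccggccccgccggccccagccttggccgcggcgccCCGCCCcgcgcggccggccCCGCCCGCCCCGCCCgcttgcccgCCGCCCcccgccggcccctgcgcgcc
The windows differ widely in CG content: they hold 51 CG dinucleotides for Tet2, 48 for Kmt2c, 39 for Sirt1, 17 for Tet3 and 15 for Tet1. Kmt2c has 12 GC box matches, some of which overlap, Sirt1 has 6 and each Tet promoter has 1. Tet2 thus shared its low number of GC boxes with Tet1 and Tet3 and its high CG count with Kmt2c.

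Promoters of the same length were found for 66 of the 83 members. The median member window held 18 CG dinucleotides, against 6 over all 32851 RefSeq promoters in the table. A GC box match was present in 68.2% of member windows and 32.7% of all windows. The ETS sequence CCGGAAG, a site type common in T cell promoters, was in 15.2% of member windows and 6.91% of all. The E2F sequence TTTCCCGC was in 4.55% (3 member windows) and 0.895%. CCAAT was equally frequent, in 34.8% and 33.8%. The FOXO sequence GTAAACA (1.52% and 3.17%) and the TCF/LEF sequence CTTTGAA (1.52% and 4.46%) each matched 1 member window. Both strands were searched. A match describes the letters in the window and shows no binding. Members had passed a count minimum and entered with the promoter listed first, while the set of all windows was not limited to genes expressed here. Whether the members' shares differ from those of other expressed genes was not tested.

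The first question, put to aged against young Tconv, was which regulators change with age in conventional T cells. Of 9495 genes tested, edgeR called 7 of the 83 members lower and 0 higher at an adjusted p under 0.05, where over all genes 2.47% were called lower and 6.38% higher. The 7 were the DNA demethylases Tet1 and Tet3, the H3K4 methyltransferase Kmt2c, the deacetylase Sirt1, the SWI/SNF subunit Arid2, the deacetylase complex subunit Arid4b and the pseudogene Smarca5-ps. The members' median log2 fold change was -0.10, against -0.00 over all genes tested. In all, 37 members lay lower in both aged Tconv libraries than in both young ones and 19 lay higher, where 29.1% and 29.9% of all genes did so.

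Tet1 (GRCm38 chromosome 10, 62804570 to 62908996) was the member gene with the largest fall apart from the pseudogene. It stood at 20.9 and 7.22 CPM in aged Tconv, against 70.1 and 73.3 CPM in young Tconv. The groups did not overlap, and aged Tconv 2 lay well below aged Tconv 1. The log2 fold change was -2.35 (SE 0.43, edgeR adjusted p = 0.0242), and -1.78 without aged Tconv 2, where Tet1 was still called. Tet3 (chromosome 6, 83362373 to 83459084) stood at 178 and 79.2 CPM in aged Tconv, against 342 and 339 CPM in young Tconv (-1.40, SE 0.33, edgeR adjusted p = 0.0427). Both aged libraries were below both young ones, again with aged Tconv 2 the lower. Tet2 (chromosome 3, 133463679 to 133545139), the Tet gene most often mutated in human T cell lymphoma, did not pass the test. It was at 96.8 and 80.8 CPM in aged Tconv and 85.9 and 95.2 CPM in young Tconv, overlapping ranges (-0.03, SE 0.23, edgeR adjusted p = 0.949).

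Among the DNA methyltransferases, Dnmt3b (chromosome 2, 153649450 to 153687730) was at 12.3 and 8.08 CPM in aged Tconv, against 25.1 and 22 CPM in young Tconv. The groups did not overlap but the test narrowly missed the threshold (-1.21, SE 0.32, edgeR adjusted p = 0.0574). Dnmt3a was at 179 and 113 CPM in aged Tconv and at 167 and 181 CPM in young Tconv, an overlap (-0.25, SE 0.20, edgeR adjusted p = 0.432).

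Of the histone methyltransferases, Kmt2c (chromosome 5, 25271798 to 25498783), which with Kmt2d marks enhancers, was at 462 and 240 CPM in aged Tconv, against 781 and 797 CPM in young Tconv. Its log2 fold change was -1.17 (SE 0.28, edgeR adjusted p = 0.0423). The other 4 members grouped as H3K4 methyltransferases (Kmt2d, Kmt2e, Setd1a and Setd7) also had values below 0 (median of the 5 -0.58), none of which passed the test. Kmt2d was at 876 and 409 CPM in aged Tconv against 1159 and 1077 CPM in young Tconv (-0.80, SE 0.37, edgeR adjusted p = 0.200). Ezh2, the catalytic subunit of Polycomb complex 2, went the other way without passing the test: 86.5 and 137 CPM in aged Tconv, against 73.8 and 75.4 CPM in young Tconv (0.58, SE 0.26, edgeR adjusted p = 0.192). Its relative Ezh1 overlapped (0.09, SE 0.15), and the H3K79 methyltransferase Dot1l was at -0.40 (SE 0.19, edgeR adjusted p = 0.211).

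Among the deacetylases, Sirt1 (chromosome 10 like Tet1, 63319005 to 63381704) was at 77.2 and 55.7 CPM in aged Tconv, against 103 and 106 CPM in young Tconv. The fall was smaller than those of Tet1 and Tet3 but the young libraries agreed closely (-0.65, SE 0.15, edgeR adjusted p = 0.0371). Sirt2, a mainly cytoplasmic relative, had a value of opposite sign, at 124 and 213 CPM in aged Tconv against 98.1 and 94.4 CPM in young Tconv (0.81, SE 0.22, edgeR adjusted p = 0.0601). The class I deacetylase Hdac2 was at 103 and 87.4 CPM in aged Tconv against 140 and 129 CPM in young Tconv (-0.49, SE 0.13, edgeR adjusted p = 0.0509). The last 2 missed the threshold.

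Of the remodeller subunits, Arid2, which defines the PBAF form of SWI/SNF, was at 168 and 125 CPM in aged Tconv, against 226 and 228 CPM in young Tconv (-0.63, SE 0.14, edgeR adjusted p = 0.039). Arid4b, a subunit of the Sin3 deacetylase complex, was at 181 and 151 CPM in aged Tconv against 233 and 232 CPM in young Tconv (-0.48, SE 0.11, edgeR adjusted p = 0.0423). Smarca5-ps was at 0.222 and 0.190 CPM in aged Tconv, a handful of reads, against 2.63 and 1.60 CPM in young Tconv (-3.33, SE 0.54, edgeR adjusted p = 0.0198). The core SWI/SNF subunit gene Smarcb1 had a positive value that did not pass (78.9 and 102 CPM in aged Tconv, 67.6 and 59.2 CPM in young Tconv; 0.51, SE 0.14, edgeR adjusted p = 0.0567). All 7 CHD members had values below 0 (median -0.30) and none was called.

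**Figure D2:**
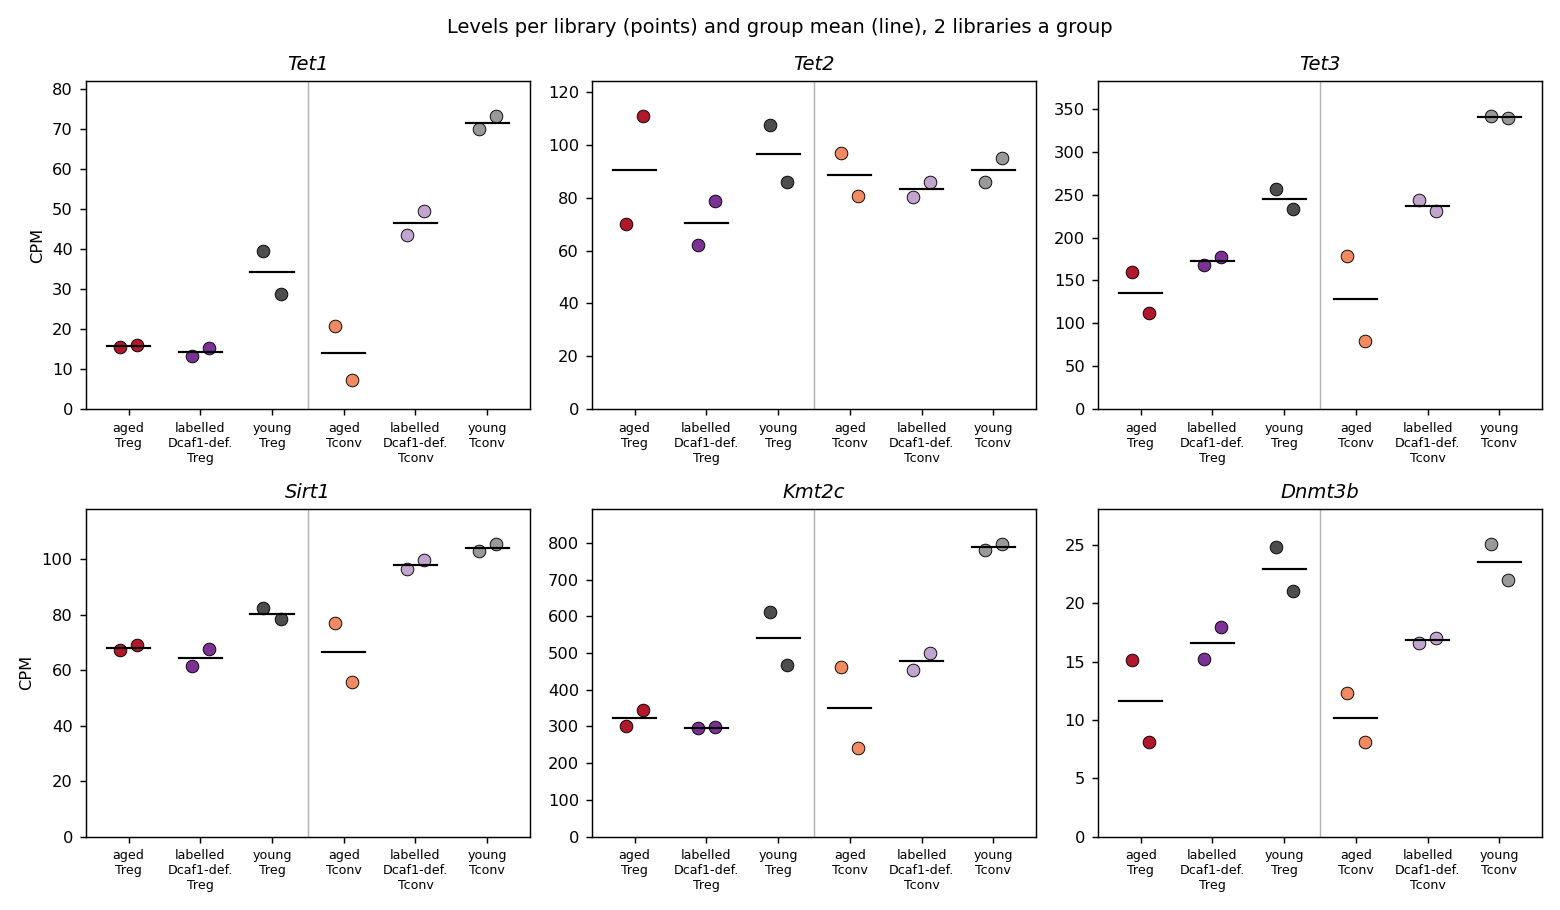
Points give the CPM of single libraries and lines the mean of 2 libraries for Tet1, Tet2, Tet3, Sirt1, Kmt2c and Dnmt3b in the 6 groups, each axis starting at 0. In Tconv the aged points lie below the young points for every gene shown except Tet2, and the libraries labelled Dcaf1-deficient lie below the young ones for every gene shown except Tet2.

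These calls rest on few libraries. Shares of all genes called were taken for the main fit, DESeq2 and limma only. Counts under left-out libraries or added terms, here and below, have no such share beside them. Their movement therefore cannot be read as particular to the members. DESeq2 called 18 members (14 lower, where 8.6% of all genes were, and 4 higher, where 13% were), and limma on the deposited log2 values called the same 7 members as edgeR (2.65% of all genes lower and 4.94% higher). At an unadjusted p under 0.05 edgeR had 15 members lower and 5 higher (11.3% and 16.9% of all genes). EdgeR's test uses 1 estimate of spread from all 12 libraries, and its calls moved with each library left out. Leaving out young Tconv 1, young Tconv 2 or labelled Tconv 2 left 0 calls, and leaving out labelled Treg 1, labelled Treg 2 or labelled Tconv 1 left 1, Smarca5-ps. Leaving out young Treg 1 or 2 left 3, leaving out aged Tconv 1 gave 26 and leaving out aged Tconv 2 left 1, Tet1. Leaving out aged Treg 1 or 2 gave 9, with Dnmt3b and Hdac2 added. With terms for macrophage and B cell transcripts 1 member was called, and with a term for high Xist 2 were, Smarca5-ps and Tet1. Part of the Treg list moved with these calls: 3 of its 6 genes were called higher in aged Tconv. Its mean log2 CPM was 7.73 and 7.94 there, against 5.75 and 6.14 in young Tconv. Il2ra, also on the list, overlapped between aged and young Tconv (values above). Of 14 cycling cell genes tested, 2 were called higher and 12 had values above 0 (median 1.17), with a mean log2 CPM of 4.07 and 5.82 in aged Tconv against 3.91 and 4.76 in young Tconv. All 8 neutrophil genes tested had values above 0 (median 2.30) and none was called. The part of these transcripts in the members' values was not tested beyond the terms given. In bulk RNA, fewer cells that express a gene and less of its RNA per cell cannot be told apart.

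The same comparison in Treg asks whether their regulators change with age too. EdgeR called 0 of 83 members, and also 0 of 9495 genes (0% in either direction). At an unadjusted p under 0.05 it had 18 members lower and 1 higher, where 9% and 8.87% of all genes were. DESeq2 called 2 members lower, Hdac1 and Chd4, and 0 higher (3.19% and 4.7% of all genes), and limma 0 (0.00887% in either direction). The members' median was -0.18, and 36 lay below both young libraries in both aged ones, 6 above, where 22.4% and 20.2% of all genes did. The members with the smallest p were Hdac1, Smarca5-ps, Kat2b, Kdm4b, Hdac10 and Dnmt3b, none past the threshold. Leaving out aged Tconv 1 or aged Tconv 2 gave 1 call, Tet1, and leaving out aged Treg 1 gave 2, Dnmt3b as lower and the SWI/SNF subunit Smarcd3 as higher.

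Tet1 in Treg was at 15.5 and 16.1 CPM in aged libraries, against 39.6 and 28.8 CPM in young ones. The groups did not overlap, but the value did not pass the test (-1.12, SE 0.41, edgeR adjusted p = 0.234). Tet3 was at 160 and 112 CPM in aged Treg, against 256 and 234 CPM in young Treg (-0.85, SE 0.33, edgeR adjusted p = 0.241). Dnmt3b was at 15.1 and 8.10 CPM in aged Treg, against 24.8 and 21 CPM in young Treg (-0.98, SE 0.32, edgeR adjusted p = 0.198). All 3 genes thus had lower values in every aged than in every young library of either cell type. Sirt1 was at 67.2 and 69.1 CPM in aged Treg and 82.6 and 78.3 CPM in young Treg (-0.24, SE 0.14, edgeR adjusted p = 0.408). Tet2 overlapped, at 70.1 and 111 CPM in aged Treg against 108 and 85.8 CPM in young Treg.

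Hdac1, Hdac10 and Kat2b were among the 6 genes of smallest p. Hdac1, a class I deacetylase, was at 263 and 241 CPM in aged Treg against 326 and 303 CPM in young Treg (-0.32, SE 0.09, edgeR adjusted p = 0.166). Hdac10 was at 68.0 and 53.7 CPM in aged Treg, against 107 and 94.0 CPM in young Treg (-0.72, SE 0.23, edgeR adjusted p = 0.192). Kat2b, the acetyltransferase PCAF, was at 110 and 119 CPM in aged Treg, against 221 and 144 CPM in young Treg (-0.68, SE 0.21, edgeR adjusted p = 0.185). None of these passed, and macrophage transcripts differed widely within both groups (given above). A fit with terms for macrophage and B cell transcripts also called 0 members here. The part of these transcripts in the values was not tested beyond that fit.

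Averaging the age difference over Treg and Tconv uses 4 aged and 4 young libraries. They were taken as independent, although Treg and Tconv may share mice. Then 13 members were called lower and 2 higher, where 7.54% and 11.2% of all genes were called lower and higher. The members' median was -0.15, against 0.01 over all genes. Of the 83, 48 (57.8%) had values below 0 in both cell types and 18 (21.7%) above 0 in both, against 36% and 37.9% of all genes. Tet1 (-1.74, SE 0.30, edgeR adjusted p = 0.0123), Tet3 (-1.13, SE 0.23, edgeR adjusted p = 0.0193), Dnmt3b (-1.09, SE 0.23, edgeR adjusted p = 0.0199) and Kmt2c (-0.96, SE 0.19, edgeR adjusted p = 0.0185) fell most among protein-coding members. Kat2b fell by 0.56, Arid2 by 0.46, Sirt1 by 0.44 (SE 0.10, edgeR adjusted p = 0.0251), Hdac2 by 0.42 and Arid4b by 0.40. The H3K9 demethylase Kdm4b fell by 0.32, the H3K9 methyltransferase Ehmt1 by 0.29, and the SWI/SNF subunit Arid1b by 0.21, all on the log2 scale. The value of Smarca5-ps was -2.46. DESeq2 called 25 members lower and 3 higher in this average (12.1% and 16.1% of all genes), and limma 14 and 0 (6.39% and 8.14%).

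Sirt2 and Kdm4d rose in this average. Sirt2 was at 108 and 136 CPM in aged Treg, against 98.0 and 100 CPM in young Treg, with its Tconv values as above (0.56, SE 0.16, edgeR adjusted p = 0.044). Kdm4d, an H3K9 demethylase gene best known from testis, was at 1.85 and 7.04 CPM in aged Treg and 2.67 and 11.5 CPM in aged Tconv. In young mice it was at 0.848 and 1.73 CPM in Treg and 0.939 and 1.27 CPM in Tconv (2.23, SE 0.59, edgeR adjusted p = 0.037). Its high values were those of aged Treg 2 and aged Tconv 2, the libraries with the tag L3 and high Xist. Without them, a choice made after seeing the data, Kdm4d, Kat2b, Hdac2, Ehmt1 and Arid1b were no longer called. Tet1, Tet3, Kmt2c, Dnmt3b, Sirt1, Arid2, Arid4b, Kdm4b, Sirt2 and Smarca5-ps still were, with other members added. In that fit only aged Treg 1 and aged Tconv 1 stood for age, and aged Treg 1 lay close to labelled Treg 1 (given above).

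The age average depended on the same libraries and on the terms in the fit. The counts for these fits again have no share of all genes beside them. It had 0 calls without young Tconv 1, 2 without young Tconv 2 or without young Treg 1 (Tet1 and Smarca5-ps in both cases), 34 without aged Tconv 1, 8 without aged Tconv 2 or either labelled Tconv library, and 9 without either labelled Treg library. Without aged Treg 1 or without aged Treg 2 it had 14, of which 11 and 8 were among the 15. Cycling cell genes moved with it (2 of 14 called higher, median 1.22), and the 8 neutrophil genes had a median of 2.89 with none called. A term for high Xist left 1 call, Smarca5-ps. A term for the tag left 3 (Tet3, Dnmt3b and Smarca5-ps), and a term for cycling cell transcripts left 4 (Tet1, Kmt2c, Arid4b and Smarca5-ps). No member passed the test of a different age effect in Treg and Tconv. EdgeR, DESeq2 and limma each called 0 there (0% of all genes by edgeR, 1.05% lower and 0.335% higher by DESeq2, 0.00887% lower and 0% higher by limma), with 4 members lower and 1 higher at an unadjusted p under 0.05 (4.35% and 2.13% of all genes). Tet1 had a difference of 1.23 between its log2 fold changes (SE 0.58, edgeR adjusted p = 0.797), and the difference of Smarcb1 was -0.64 (SE 0.19, edgeR adjusted p = 0.547).

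**Figure D3:**
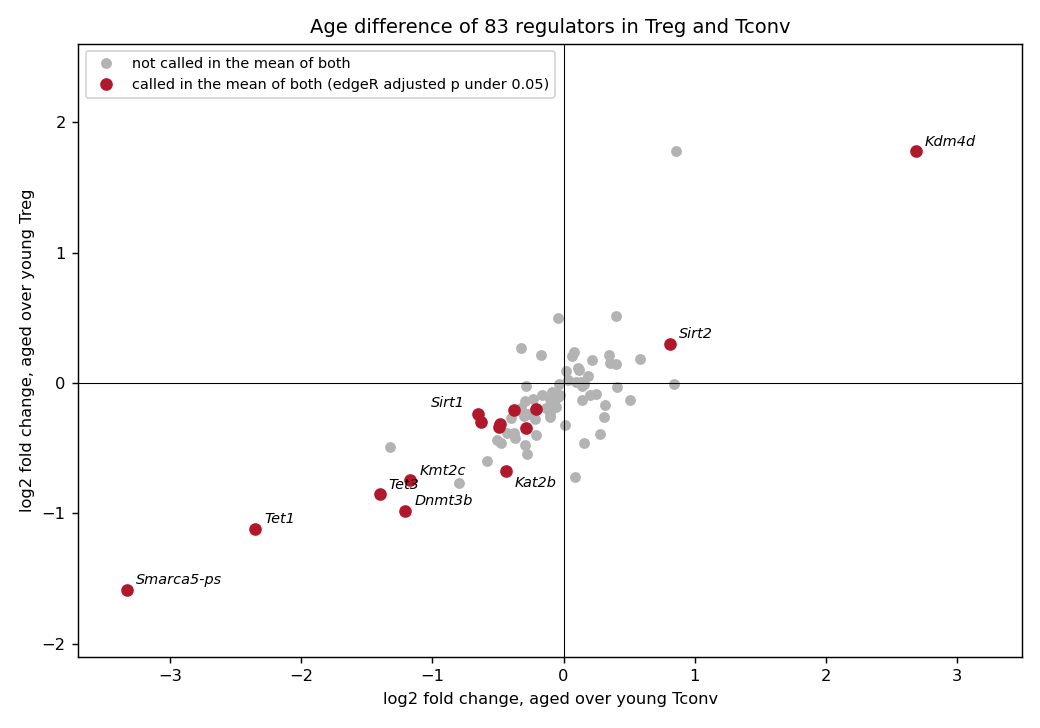
Each point is one of the 83 genes, with its aged over young log2 fold change in Tconv on the horizontal axis and in Treg on the vertical axis; red points were called in the mean of both. Most red points lie in the lower left part, led by Smarca5-ps, Tet1, Tet3, Dnmt3b and Kmt2c, and Sirt2 and Kdm4d lie in the upper right.

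Libraries labelled Dcaf1-deficient were compared with young wild type to ask whether cells under that label differ in the same regulators. EdgeR called 0 of 83 members in Treg (0% of all genes) and 0 in Tconv (0%). In the average of both it also called 0, where 0.379% of all genes were called lower and 0.548% higher. At an unadjusted p under 0.05 the average had 29 members lower and 2 higher, where 16.8% and 14.6% of all genes were. DESeq2 called 19 members lower and 1 higher in the average (9.99% and 10.9% of all genes). It called 17 lower and 0 higher in Treg (6.3% and 6.5%) and 0 in Tconv (0.749% and 1.7%). Limma called 1 in the average, Kdm4b, as lower (0.719% of all genes lower and 1.28% higher), 0 in Treg (0%) and 0 in Tconv (0.0444% lower and 0.0532% higher). At an unadjusted p under 0.05 edgeR had 26 members lower and 1 higher in Treg (14.3% and 10.6% of all genes), and 6 and 0 in Tconv (4.29% and 5.76%).

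Most labelled values were below 0. The median of the 83 was -0.24 in Treg and -0.12 in Tconv, against -0.01 and -0.00 over all genes. In Treg 54 members lay below both young libraries in both labelled ones and 12 above, where 36.9% and 35.2% of all genes did. In Tconv the counts were 42 and 11, where 32.7% and 34.2% did. The 5 members grouped as H3K4 methyltransferases (Kmt2c, Kmt2d, Kmt2e, Setd1a and Setd7) and the 7 CHD members all had values below 0 in the average. Their medians were -0.52 and -0.36, and none was past the edgeR threshold. These groups hold members only and are not the whole families.

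Kmt2d was at 354 and 395 CPM in labelled Treg, against 989 and 611 CPM in young Treg, and at 591 and 523 CPM in labelled Tconv, against 1159 and 1077 CPM in young Tconv. The groups were apart in both cell types, with young Treg 2 well below young Treg 1 (average -1.05, SE 0.26, edgeR adjusted p = 0.0657). Kmt2c was at 295 and 298 CPM in labelled Treg, against 613 and 468 CPM in young Treg. In Tconv it was at 454 and 501 CPM in labelled libraries, against 781 and 797 CPM in young ones (average -0.80, SE 0.19, edgeR adjusted p = 0.0654). Neither passed edgeR's threshold, and DESeq2 called both in the average (adjusted p = 0.00146 for Kmt2d and 0.00202 for Kmt2c).

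Tet1 was at 13.3 and 15.3 CPM in labelled Treg, against 39.6 and 28.8 CPM in young Treg. Its value in Treg was -1.26 (SE 0.42, edgeR adjusted p = 0.145). In Tconv it was at 43.5 and 49.6 CPM in labelled libraries, against 70.1 and 73.3 CPM in young ones (-0.62, SE 0.41, edgeR adjusted p = 0.601). The 2 groups were apart in each cell type, without passing the test. Tet3 was at 168 and 177 CPM in labelled Treg, against 256 and 234 CPM in young Treg, and at 243 and 231 CPM in labelled Tconv, against 342 and 339 CPM in young Tconv (average -0.51, SE 0.23, edgeR adjusted p = 0.170). Sirt1 was at 61.6 and 67.6 CPM in labelled Treg, against 82.6 and 78.3 CPM in young Treg, and at 96.5 and 99.8 CPM in labelled Tconv, close under the 103 and 106 CPM of young Tconv (average -0.20, SE 0.10, edgeR adjusted p = 0.206). Dnmt3b averaged -0.47 (SE 0.23, edgeR adjusted p = 0.189), Tet2 -0.29 (SE 0.16) and Dnmt3a -0.02 (SE 0.14).

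The smallest p-values of the labelled average belonged to histone demethylases. Kdm4b was at 72.1 and 69.2 CPM in labelled Treg, against 102 and 96.7 CPM in young Treg, and at 98.9 and 89.2 CPM in labelled Tconv, against 122 and 116 CPM in young Tconv (average -0.41, SE 0.08, edgeR adjusted p = 0.0522). The H3K4 demethylase Kdm5b was at 75.6 and 73.9 CPM in labelled Treg, against 139 and 118 CPM in young Treg, and at 87.8 and 91.5 CPM in labelled Tconv, against 125 and 120 CPM in young Tconv (average -0.62, SE 0.13, edgeR adjusted p = 0.0547). In Treg alone the smallest p-values were those of Kdm4b, Kdm5b, Arid4b, Chd6, Chd8 and the class IIa deacetylase Hdac7 (log2 fold changes from -0.88 for Hdac7 to -0.46 for Arid4b, edgeR adjusted p = 0.131 to 0.133). The remodeller Chd6 followed in the average (-0.57, SE 0.12, edgeR adjusted p = 0.0598). For Kdm4b, Kdm5b and Chd6 the labelled and young groups were apart in both cell types. Ezh2 was higher in all labelled than in all young libraries of its cell type, at 147 and 128 CPM in labelled Treg, against 102 and 91.7 CPM in young Treg, and at 106 and 110 CPM in labelled Tconv, against 73.8 and 75.4 CPM in young Tconv. Its average was 0.52 (SE 0.19, edgeR adjusted p = 0.112).

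Other transcripts moved with the label. The macrophage list was higher in all labelled libraries than in young ones of the same cell type (values above), and so was the 10-gene neutrophil list, of which 9 were in the table, with a mean log2 CPM of 4.09 and 5.12 in labelled Treg against -2.38 and 1.33 in young Treg and 1.95 and 1.92 in labelled Tconv against -2.56 and -1.37 in young Tconv. The cycling cell list averaged a log2 CPM of 6.88 and 6.71 in labelled Treg, against 4.67 and 5.35 in young Treg, and 5.99 and 6.06 in labelled Tconv, against 3.91 and 4.76 in young Tconv. The T cell list was lower in labelled Treg (8.15 and 8.05) than in young Treg (9.33 and 8.74). So was the Treg list (8.48 and 8.25, against 9.52 and 8.79 in young Treg). The erythroid list was at 7.70 and 8.86 in labelled Treg, against 1.19 and 6.11 in young Treg. In Tconv it was at 5.93 and 6.00 in labelled libraries, against -0.34 and 2.63 in young ones. The B cell list overlapped in Treg (7.93 and 7.91 in labelled, 2.86 and 8.03 in young libraries). With a term for cycling cell transcripts the average of Ezh2 was -0.09 and that of Sirt1 0.06, both of opposite sign to the values above. Aged libraries enter these tests through the shared estimate of spread, which bears on every gene tested. Shares of all genes called were not taken for the fits with libraries left out. Their counts therefore cannot be read as particular to the members. Without aged Treg 1 or without aged Treg 2, edgeR called 14 members in the average, all lower, and 1 in Treg, Kdm5b. Without aged Tconv 1 it called 13 in the average and without aged Tconv 2 it called 14, all lower, with Tet1, Tet3 and Kmt2c among them, and 2 in Treg, Tet1 and Kmt2c. Without aged Treg 2 and aged Tconv 2, edgeR called 28 members in Treg, 1 in Tconv and 35 in the average, including Tet1, Tet3, Kmt2c, Kmt2d, Dnmt3b and Sirt1 as lower and Ezh2 as higher. Leaving out young Treg 2 and aged Treg 1 gave 24 calls in Treg and 26 in the average, with Kmt2c and Kmt2d but neither Tet1 nor Sirt1 among the 26. The test of a different label effect in Treg and Tconv called 0 members with edgeR, DESeq2 and limma (0% of all genes by edgeR and limma, 0% lower and 0.00871% higher by DESeq2), with 1 lower and 0 higher at an unadjusted p under 0.05 (1.53% and 1.21%).

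Treg were then compared with Tconv, over the 3 conditions (6 against 6 libraries), to ask which regulators distinguish the cell types. The libraries were again taken as independent. Of the 83 members, 19 were called lower in Treg and 3 higher, where 11% and 11.5% of all genes were called lower and higher. The median was -0.14, against -0.00 over all genes. DESeq2 called 28 lower and 8 higher (13.5% and 17.7%), and limma 14 and 3 (7.88% and 8.77%). In young mice alone, 0 members were called by edgeR (0.305% of all genes lower, 0.495% higher) and by limma (0.568% lower, 0.692% higher), while DESeq2 called 3. At an unadjusted p under 0.05 edgeR had 9 lower and 6 higher (6.3% and 7.99% of all genes). The 3 called by DESeq2 were Hdac1 and Hdac6 as higher and Hdac5 as lower, where 3.97% and 2.88% of all genes were higher and lower.

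Arid5a, an ARID protein that stabilises cytokine mRNAs, had the smallest p. It was at 134 and 123 CPM in aged Treg against 241 and 227 CPM in aged Tconv, at 143 and 112 CPM in labelled Treg against 187 and 168 CPM in labelled Tconv, and at 171 and 136 CPM in young Treg against 201 and 177 CPM in young Tconv. The cell types were apart in each condition (-0.55, SE 0.09, edgeR adjusted p = 0.0078). Setd6, a methyltransferase of the NF-kB subunit RelA, was at 24.1 and 24.3 CPM in aged Treg against 40.0 and 36.3 CPM in aged Tconv, and at 22.6 and 24.3 CPM in labelled Treg against 41.5 and 39.6 CPM in labelled Tconv. In young mice it was at 40.6 and 26.8 CPM in Treg against 52.0 and 41.4 CPM in Tconv (over all conditions -0.64, SE 0.12, edgeR adjusted p = 0.0123). The H3K9 demethylases Kdm4b (-0.33, SE 0.06, edgeR adjusted p = 0.0133) and Kdm4c (-0.33, SE 0.06, edgeR adjusted p = 0.0109) were likewise apart in each condition.

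Tet1 fell by 0.87 in Treg on the log2 scale (SE 0.24, edgeR adjusted p = 0.0369), although aged Treg (15.5 and 16.1 CPM) and aged Tconv (20.9 and 7.22 CPM) overlapped. Sirt1 fell by 0.31 (SE 0.08, edgeR adjusted p = 0.0342), and aged libraries overlapped there too. The other calls in this direction were Setd2, Setd3, Setd4, Setd1a and Suv420h1 among methyltransferases and their relatives, Ehmt1, Hdac5, the remodellers Chd1, Chd1l and Chd8, the SWI/SNF subunits Arid1a and Arid2, and Brd2. Their log2 fold changes lay between -0.75 (Setd4) and -0.22 (Setd1a). The 3 calls in the other direction were the SWI/SNF core subunit Smarcc1 (0.38, SE 0.09, edgeR adjusted p = 0.0233), the B cell and erythroid factor Arid3a (0.62, SE 0.17, edgeR adjusted p = 0.0388) and Smarca5-ps (1.53, SE 0.28, edgeR adjusted p = 0.012).

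Transcripts of other cells moved with this comparison, and the counts under other fits given below again lack the share of all genes. All 10 macrophage genes tested and 6 of 8 B cell genes were called higher in Treg libraries, and 5 of 7 T cell genes lower. Arid3a, itself a gene of B cells, was at 42.3, 47.7 and 45.6 CPM in aged Treg 1 and both labelled Treg libraries, 41.4 CPM in aged Treg 2, and 19.4 and 39.8 CPM in young Treg, against 20.2 to 30.4 CPM over the 6 Tconv libraries. With terms for macrophage and B cell transcripts, or with one for cycling cells, edgeR called 0 members in this comparison. Without young Treg 2 and aged Treg 1 it called 8, among them Setd6, Arid5a, Kdm4c and Arid3a. Leaving out single libraries gave 3 to 32 calls: 3 without young Tconv 1 or labelled Tconv 1, 4 without labelled Tconv 2, 5 without either labelled Treg library, 7 without young Tconv 2, 8 without young Treg 2 and 32 without aged Treg 2 or aged Tconv 2. Arid5a and Kdm4c were called whichever 1 library was left out.

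**Figure D4:**
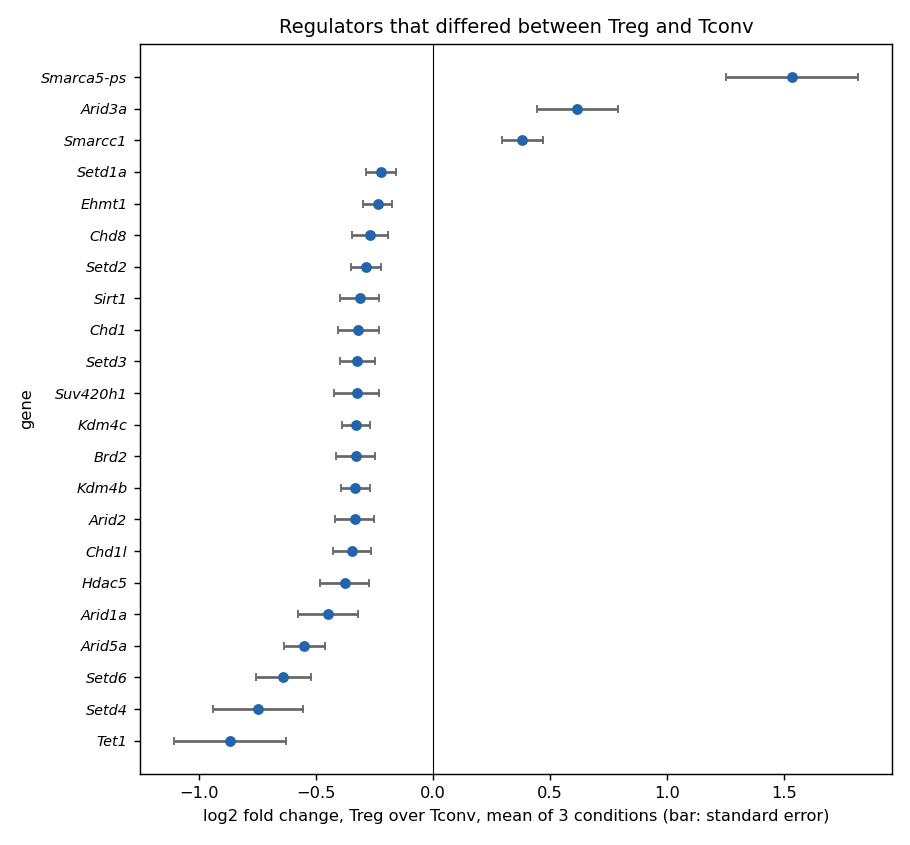
Points give the Treg over Tconv log2 fold change, averaged over the 3 conditions, of the 22 members called by edgeR, and bars its standard error. Smarca5-ps, Arid3a and Smarcc1 lie right of 0, and the other 19 lie left of it, with Tet1 lowest.

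Finally, 2 X-linked histone demethylases were higher in libraries with high Xist than in those with low Xist. They were singled out after their values were seen. Kdm6a (UTX, chromosome X, 18162575 to 18279936) removes H3K27 methylation and Kdm5c (chromosome X, 152233020 to 152274535) removes H3K4 methylation, and both are known to escape X inactivation. Xist was at 1263 to 2018 CPM in 5 libraries (aged Treg 2, aged Tconv 2, labelled Treg 2 and both labelled Tconv libraries) and at 1.37 to 2.94 CPM in the other 7. Kdm6a was at 240, 209, 169, 206 and 212 CPM in those 5, and at 100 to 136 CPM in the other 7. Kdm5c was at 298, 302, 291, 294 and 299 CPM in the 5 and at 197 to 242 CPM in the other 7. For both genes the libraries with high and low Xist did not overlap. Both young Treg and both young Tconv libraries had low Xist, so the Xist level was not independent of group.

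Without regard to Xist, Kdm6a in Tconv had a log2 fold change of 0.68 in labelled libraries (SE 0.38, edgeR adjusted p = 0.563) and 0.40 in aged ones (SE 0.38, edgeR adjusted p = 0.524). With a term for Xist these values were -0.17 (SE 0.16, edgeR adjusted p = 0.709) and -0.05 (SE 0.13, edgeR adjusted p = 0.864). Kdm5c was at 0.40 (SE 0.25) in labelled and 0.22 (SE 0.25) in aged Tconv, and at -0.13 (SE 0.14) and -0.07 (SE 0.12) with the term. None of these values passed a test. Both labelled Tconv libraries had high Xist and both young ones low, so sex and label cannot be told apart within Tconv.

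**Figure D5:**
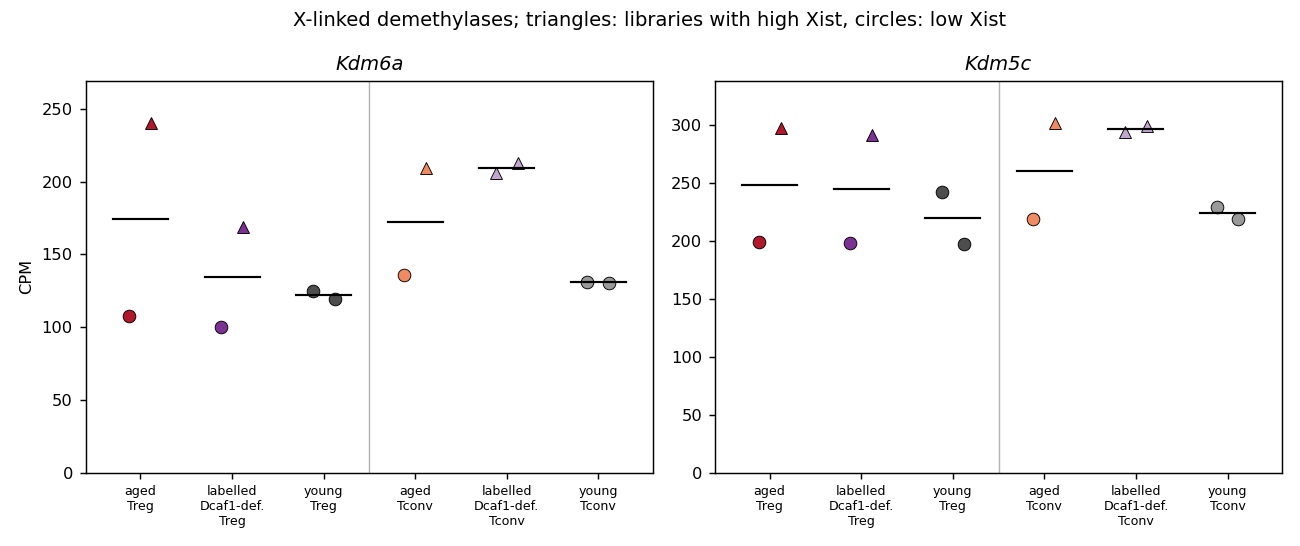
Points give the CPM of Kdm6a and Kdm5c in single libraries, triangles for the 5 libraries with high Xist and circles for the 7 with low Xist, with the mean of 2 libraries as a line. Every triangle lies above every circle in both panels.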

How the data were processed

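RNA sequencing libraries of sorted mouse Treg and Tconv (12 libraries, 6 groups of 2) were analysed from 2 tables. The first holds the estimated counts per gene that the authors deposited. The second holds log2 expression values that the authors deposited for 11271 rows, whose scaling is not given in the sources used here. The submitters' processing notes name Salmon 0.9.1 and DESeq2, and the build mm10. Of the deposited estimated counts 23.5% were whole numbers. They were rounded to whole numbers, and 11531 of 13404 rows had a count. Gene names that a spreadsheet had turned into dates (18 rows) were left as they stood.

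Counts were fitted with edgeR 4.0.16 (TMM scaling, filterByExpr, quasi-likelihood test, 1 coefficient per group, 6 residual degrees of freedom) in R 4.3.3. The filter kept 9495 genes, with all 83 members among them, and removed 1991. P-values were adjusted by the Benjamini-Hochberg method over all genes tested and called at 0.05. Standard errors were derived from the log2 fold change and the F statistic. DESeq2 1.42.0 on the counts and limma 3.58.1 on the deposited log2 values were alternatives, as were other size factors, no filter, each cell type alone, terms for replicate number, tag, Xist, macrophage and B cell or cycling cell transcripts, and leaving out libraries. The scripts were tested on simulated counts. Totals of 18358477 to 26852448 counts limit the precision of members under about 1 CPM.

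Exon lengths (merged over all transcripts of a gene) and gene coordinates came from GENCODE M21 (GRCm38) and promoters from RefSeq (GRCm38.p6), by symbol. The members, lists and tests were chosen with earlier results of these data known. Genes were named where they are Tet, Dnmt3, Ezh, Dot1l or Sirt1 genes, where they had the largest changes among calls at 4 CPM or more, or, with few calls, where they had the smallest p. Every called member is named besides. That step, the naming of Kdm6a, Kdm5c and Smarcd3, and that of Kdm4d and Kmt2d in other comparisons, followed after values were seen.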

Additional observations from a re-analysis of the deposited data

How the results depend on the processing

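Counts of members called moved with the method and with single libraries. Shares of all genes called were taken for the main fit, DESeq2 and limma only. The movements under other fits therefore cannot be read as particular to the members. DESeq2 called 18 members in aged Tconv, 2 in aged Treg, 28 in the age average, 17 in labelled Treg, 20 in the labelled average, 3 in young Treg against Tconv and 36 in Treg against Tconv over all conditions. Limma called 1 in the labelled average. Each cell type fitted alone gave 1 call in aged Tconv. The Xist term gave 2 in aged Tconv and 1 in the age average. The tag term gave 3 in the age average, 9 in the labelled average and 2 in young Treg against Tconv. The macrophage and B cell terms gave 1 in aged Tconv and 0 in Treg against Tconv, and the cycling cell term gave 4 in the age average and 0 in Treg against Tconv. Without the low-count filter Treg against Tconv had 13 calls. Without young Treg 2 and aged Treg 1 there were 24 calls in labelled Treg, 26 in the labelled average and 8 in Treg against Tconv. Without aged Treg 2 and aged Tconv 2, an alternative chosen after seeing the data, there were 28 in labelled Treg, 1 in labelled Tconv, 35 in the labelled average, 7 in young Treg against Tconv and 41 in Treg against Tconv. Leaving out single libraries gave 0 to 26 calls in aged Tconv, 0 to 2 in aged Treg, 0 to 34 in the age average, 0 to 2 in labelled Treg, 0 to 14 in the labelled average, 0 to 1 in young Treg against Tconv, 3 to 32 in Treg against Tconv and 0 to 2 in the age difference between cell types. Except where named, the cause was not tested.

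The labels do not say whether libraries with the same replicate number were paired. Over 15 pairs of groups the correlation of deviations ran from -0.66 to 0.68, and 4 exceeded 0.1. Between Treg and Tconv of the same condition it was 0.68 in young, 0.27 in aged and 0.04 in labelled libraries. With 2 libraries a group these values cannot decide whether the libraries were paired. With the replicate number as a block, 8 members were called in aged Tconv, 18 in the age average and 21 in Treg against Tconv, and 0 in the labelled average, in each other age or label comparison and in young Treg against Tconv.

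Of 1394 values of single genes under an alternative, 888 kept their direction and their side of the threshold, 456 kept their direction but were no longer called, 47 were called that had not been, and 3 changed sign. These were the labelled average of Sirt1 (0.055), the labelled average of Ezh2 (-0.086) and labelled Treg Ezh2 (-0.12), all with the cycling cell term. The precision is limited by 2 libraries a group, 6 residual degrees of freedom and, for members down to 0.190 CPM, by few reads.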

Other observations

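A list of 73 partners of these regulators, such as subunits of their complexes and readers of their marks, held 63 genes in the table, of which 62 were tested. In Treg against Tconv over all conditions, 5 were called higher and 10 lower by edgeR, where 11.5% and 11% of all genes were. The higher ones included Uhrf1, which brings the maintenance methyltransferase to newly copied DNA (log2 fold change 1.23), the remodeller gene Hells (0.98) and the acetyltransferase gene Hat1 (0.31). The lower ones included the Polycomb gene Pcgf1 (-0.64) and Pbrm1, a subunit of PBAF (-0.35). Uhrf1 and Hells are also genes of cycling cells. The mean log2 CPM of the cycling cell list was higher in labelled Treg (6.88 and 6.71) than in labelled Tconv (5.99 and 6.06). It overlapped between aged Treg (6.74 and 5.38) and aged Tconv (4.07 and 5.82), and between young Treg (4.67 and 5.35) and young Tconv (3.91 and 4.76). The part of cycling cells was not tested.

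In aged against young Tconv, 1 partner was called higher and 2 lower, where 6.38% and 2.47% of all genes were. Baz1a, a subunit of ISWI remodellers, was at 462 and 586 CPM in aged Tconv, against 243 and 230 CPM in young Tconv (1.15, SE 0.14, edgeR adjusted p = 0.0126). In Treg it was at 292 and 327 CPM in aged libraries and 230 and 272 CPM in young ones. Pbrm1 (-0.44) and the histone chaperone gene Daxx (-0.49) fell. No partner was called in the labelled comparisons by edgeR.

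Smarcd3, a SWI/SNF subunit, was at 5.68 and 34.3 CPM in aged Treg and 5.39 and 9.65 CPM in aged Tconv, against 7.20 and 4.41 CPM in young Treg and 4.08 and 4.24 CPM in young Tconv. Its high value in aged Treg 2, like those of Kdm4d, came from a library with the tag L3.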
